A study of Mus musculus with 8 samples.

Results

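The transcriptome described here is that of mouse ovarian follicles after gonadotropin priming alone, taken from the 4 control libraries among the 8 libraries of the study. They were chosen by their label as controls, and the 4 melatonin libraries were not used. Each control library came from follicles of type 7 to 8, a morphological stage, isolated from ovaries of Kunming mice (an outbred stock of no stated genotype) at postnatal day 21. The animals had received pregnant mare serum gonadotropin (PMSG) and normal saline 24 h before collection. PMSG is a hormone preparation that acts mainly like follicle-stimulating hormone (FSH). The labels number the libraries 1 to 4 without saying whether each came from 1 animal or from a pool, so the spread between them may be technical in part. No untreated follicles are among the control samples, so nothing below is a response to PMSG.

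A growing follicle holds 1 oocyte surrounded by layers of granulosa cells, with a basement membrane and a theca layer outside them. FSH acts on granulosa cells through cyclic AMP and raises the inhibin and activin subunits and the enzymes that make oestradiol, while the theca supplies the androgen that aromatase converts. The oocyte in turn secretes growth factors that act on the granulosa cells, builds the zona pellucida and stores transcripts for the early embryo.

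Expression is given as FPKM, fragments per kilobase, scaled to the depth of the library. It divides by gene length, so that levels of different genes can be set side by side within a library. Here the length matched that of all annotated exons of a gene together. A gene whose transcripts use only part of these exons can thus be given too low a level. Values are listed in the order control 1, 2, 3 and 4, and a mean is followed by its SD over these 4 libraries. The low values implied that FPKM was scaled by a total of between 17451116 and 22034273 fragments in each library. Whether this total counts mapped fragments or only those assigned to genes is not given in the sources used here. A single fragment over 1 kb of exon corresponded to 0.0454 to 0.0573 FPKM. Between 14504 and 14760 genes per library reached 1 FPKM, and 13244 genes did so in all 4. Pearson correlations between libraries of log2(FPKM + 1), computed across genes, which are not replicates, ran from 0.968 to 0.975.

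The libraries carried the markers of a follicle. All 15 granulosa markers had a mean of at least 10 FPKM, and 24 of 25 oocyte markers had a mean of at least 1 FPKM. Of all 55157 genes, 14636 had a mean of at least 1 FPKM and 5694 of at least 10 FPKM. These shares are also the background for the counts of list members below. All lists were chosen with earlier results of these data known. Xist, the RNA of the inactive X chromosome, chosen after its values were seen, was at 113, 84.8, 87.9 and 61.3 FPKM. The 4 Y-linked genes examined (Ddx3y, Uty, Kdm5d and Eif2s3y) were listed at 0 in every library, as was Dmrt1, a gene of Sertoli cells in the testis. For Dmrt1 a count of 0 allowed up to 0.0525 to 0.0663 FPKM (3 fragments, counting error only).

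**Figure D1:**
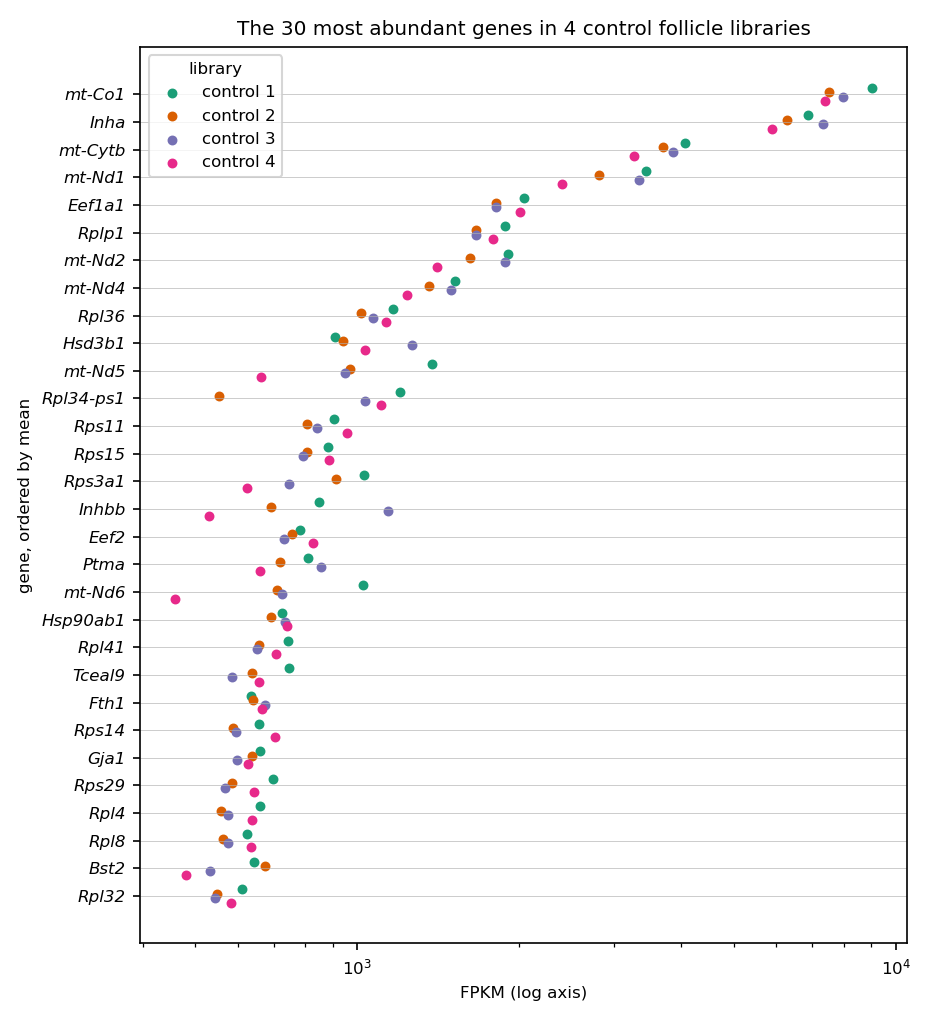
The 30 genes with the highest mean, one row per gene, with FPKM on a log axis and 1 point per library. mt-Co1 and Inha stand above the other nuclear and mitochondrial genes in every library, and most rows have 4 points close together, with wider rows for mt-Nd5, Rpl34-ps1, mt-Nd6 and Inhbb.

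The most abundant nuclear transcript was Inha, which encodes the alpha subunit of inhibin, the granulosa hormone that lowers FSH. It stood at 6888, 6285, 7333 and 5883 FPKM and was second in rank in all 4 libraries, behind mt-Co1 (subunit of cytochrome c oxidase) at 9053, 7510.3, 7996 and 7399 FPKM. Inha alone held 2.25% of the summed FPKM. The gene lies on chromosome 1 at 75507077 to 75510366 (mm10).

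The 30 highest genes comprised 11 ribosomal protein genes, 7 genes of the mitochondrial genome, 1 pseudogene and 11 other protein-coding genes. Those 11 were Inha, Eef1a1 and Eef2 (translation elongation factors), Hsd3b1, Inhbb, Ptma, Hsp90ab1 (a cytosolic chaperone), Tceal9, Fth1 (ferritin heavy chain), Gja1 and Bst2. Of these, Inha and Inhbb are among the 15 granulosa markers. The pseudogene, Rpl34-ps1, is a near-identical copy of Rpl34, and its level and place are uncertain for the reason given below. Hsd3b1 is counted among the theca markers below, though granulosa cells also express it, and bulk follicles do not show its cell of origin. Hsd3b1, which makes progesterone from pregnenolone, was at 909, 942, 1264 and 1035 FPKM. Gja1, the connexin of the gap junctions between granulosa cells, was at 660.2, 639, 597 and 628 FPKM. Inhbb, the beta B subunit of inhibin and activin, was at 851, 692, 1141 and 530.3 FPKM, so that its highest library had 2.15 times the lowest, against 1.11 times for Gja1. Hsd3b1 lies on chromosome 3 at 98852194 to 98859794 and Inhbb on chromosome 1 at 119415465 to 119422248.

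The 10 most abundant genes held 10.3% ± 0.636 of summed FPKM, the top 100 held 24.7% ± 0.870 and the top 1000 held 53.7% ± 0.859. By class, mitochondrial genes held 7.27% ± 0.827, ribosomal protein genes 8.49% ± 0.534 and pseudogenes 6.54% ± 0.127, while other protein-coding nuclear genes held 73.7% ± 0.761. The mitochondrial share was highest in control 1 at 8.29% and lowest in control 4 at 6.29%. Of the top 30 genes of each library, 22 were in the top 30 of all 4, and 38 genes entered at least 1 of these lists.

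Below the first 30, several genes of protein folding in the endoplasmic reticulum stood high. These genes, and Gapdh and Actb below, were chosen after their values were seen. Calr (calreticulin) had a mean of 548 ± 34.5 FPKM, Hspa5 (the lumenal chaperone BiP) 501 ± 49.5, Pdia3 465 ± 33.1, Serpinh1 (a collagen chaperone) 461 ± 26.5, P4hb 402 ± 27.9 and Hsp90b1 401 ± 33.2 FPKM. Gapdh, a glycolytic enzyme often used as a reference, was low at 15.9 ± 0.953 FPKM, while Actb (beta actin) was at 409 ± 23.8 FPKM. Gapdh has many near-identical pseudogenes, and how the authors counted fragments that match more than 1 place is not given in the sources used here. Its FPKM also divides by 4133 bases of annotated exon, which its transcripts may not use in full. The level of Gapdh is therefore uncertain.

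**Figure D2:**
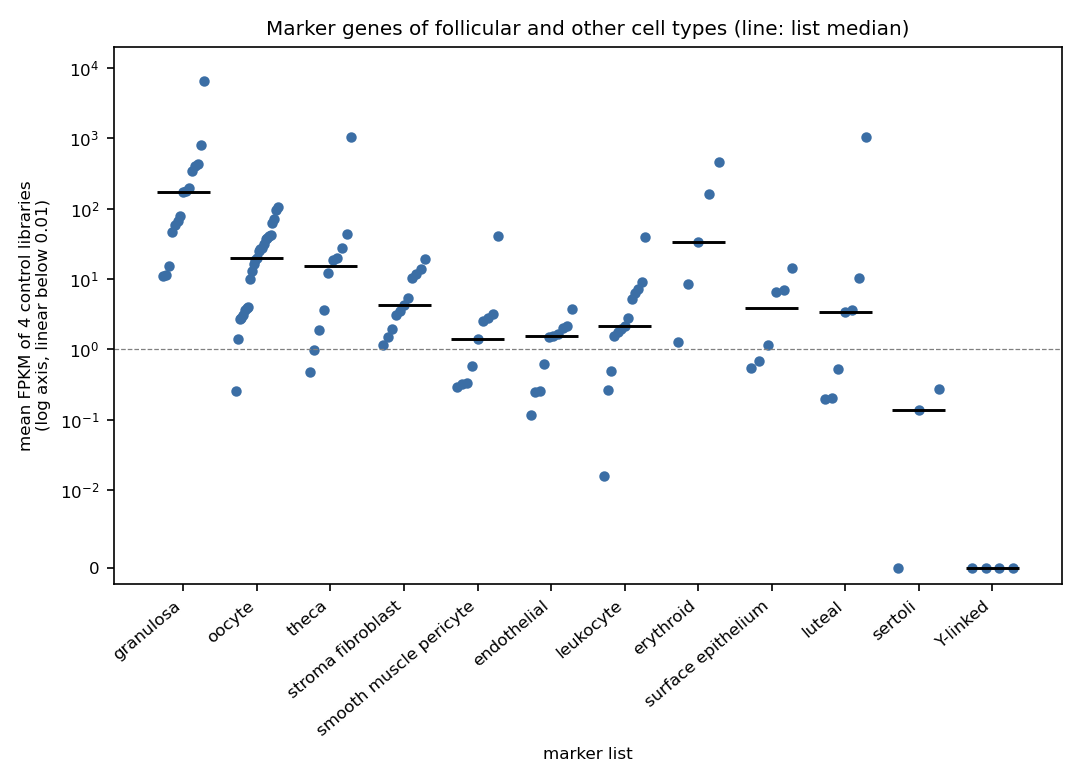
Mean FPKM of each marker gene over the 4 control libraries on a log axis (linear below 0.01), with 1 point per gene, a black line at each list's median and a dashed line at 1 FPKM. The granulosa list has a median of 171 FPKM and lies wholly above 10 FPKM, the oocyte list has a median of 19.7 FPKM, and the Sertoli and Y-linked lists lie below 1 FPKM.

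Among cell types, granulosa transcripts summed to 9778, 8868, 10821 and 8250 FPKM over 15 genes. The 25 oocyte genes summed to 567, 847, 728 and 686 FPKM. These are whole follicles in bulk, so fewer cells of a type and less RNA per cell cannot be told apart here or in any result below, and sums of lists with different genes do not give proportions of cells. The order of the sums was the same in every library for these lists, granulosa above oocyte.

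Granulosa genes fell into hormone subunits, enzymes, receptors and transcription factors. Of the hormones, Inhba (beta A subunit) had 384, 262, 512 and 232 FPKM, and Amh (anti-Müllerian hormone, made by growing follicles) had 381, 473, 504 and 377 FPKM. Fst (follistatin, which binds activin) had 212, 199.8, 169 and 219.9 FPKM. The beta B subunit exceeded the beta A subunit by 2.22, 2.64, 2.23 and 2.28 times, a ratio that moved less between libraries than either gene.

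Receptors were led by Esr2, the oestrogen receptor of granulosa cells, at 187, 177, 135 and 224 FPKM. Amhr2, the receptor of anti-Müllerian hormone, followed at 129, 138, 157 and 118 FPKM, overlapping the Esr2 range. Fshr was at 55.4, 59.5, 70.8 and 51.2 FPKM and Lhcgr, the receptor of luteinizing hormone (LH), at 2.90, 3.30, 5.19 and 3.24 FPKM. Fshr exceeded Lhcgr 16.7 ± 2.44 times and Esr2 exceeded Esr1 86.2 ± 12.97 times, and in both pairs the lowest value of the first gene lay above the highest of the second. Between these extremes came Pgrmc1 (95.7 ± 3.72 FPKM), the natriuretic peptide receptor Npr2 (83.1 ± 4.90), Bmpr1b (73.7 ± 9.29) and Bmpr2 (73.2 ± 8.12). The ranges of the last 3 overlapped, while every Pgrmc1 value lay above every Npr2 value. Of 32 receptors listed, 27 had a mean of at least 1 FPKM and 17 of at least 10 FPKM.

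The melatonin receptors were at or near 0. Mtnr1a was listed at 0, 0, 0 and 0.0221 FPKM, the last value corresponding to 1 fragment. Mtnr1b was listed at 0 in all 4 libraries, which allows up to 0.0742 to 0.0937 FPKM (3 fragments per library). Either receptor may lie below what this depth can show.

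Of the 29 transcription factors listed, 26 had a mean of at least 1 FPKM. Within this list Esr2 and Nr5a2 (a nuclear receptor needed for ovulation, at 173, 165, 144 and 200.3 FPKM) led, followed by Foxo1 at 126 ± 16.1 FPKM and Ctnnb1 (beta catenin) at 97.6 ± 1.95 FPKM. The transcription factors Jun and Fos, listed with the immediate-early genes below, had higher means, at 280 ± 45.1 and 212 ± 51.1 FPKM. Foxl2, which maintains granulosa identity, had 80.7, 67.8, 111 and 55.2 FPKM. Nr5a1, the steroidogenic factor that activates many steroid synthesis genes, was steadier at 36.5 ± 2.01 FPKM.

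The steps of steroid synthesis stood at very different levels. Star, which carries cholesterol into mitochondria, had 3.85, 2.48, 3.07 and 2.59 FPKM, and Cyp11a1, which cleaves its side chain, had 18.1, 13.1, 24.5 and 18.7 FPKM. Hsd3b1 exceeded Cyp11a1 57.2 ± 9.95 times and Star 357 ± 81.5 times. Hsd17b1, which turns oestrone into oestradiol, was the second highest enzyme at 429, 340.4, 502 and 355 FPKM. Cyp17a1, the theca enzyme that makes androgen, had 23.2, 20.4, 15.4 and 20.2 FPKM, and aromatase, Cyp19a1 (chromosome 9, 54165937 to 54268110), had 11.6, 5.75, 23.0 and 5.07 FPKM. The Cyp19a1 values of controls 1 and 3 thus lay above those of controls 2 and 4, while the Cyp17a1 value was lowest in control 3. Of 15 genes in the steroid list, 13 had a mean of at least 1 FPKM. Hsd3b1 belongs to a family of similar genes, so fragments may be split among its members.

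Genes of the ovulatory programme, which LH induces in granulosa and cumulus cells, were mostly low. Of 15 genes, 4 had a mean of at least 1 FPKM: the transcription factors Cebpb (25.0 ± 6.33) and Cebpa (17.1 ± 6.33), the protease Adamts1 (9.98 ± 1.62) and the growth factor Btc (1.03 ± 0.177). Ptgs2, the prostaglandin synthase of ovulation, was at 0.305, 0.601, 0.773 and 0.307 FPKM. Has2, which makes the hyaluronan of the expanding cumulus, had 0.260 ± 0.146 FPKM, Tnfaip6 0.266 ± 0.166, Pgr (progesterone receptor) 0.104 ± 0.0563 and Areg 0.110 ± 0.0955 FPKM. Sult1e1, an oestrogen sulfotransferase, was listed at 0 throughout, where 3 fragments would give 0.110 to 0.138 FPKM.

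Genes of cell division and of the follicular matrix were expressed. All 11 proliferation genes had a mean of at least 1 FPKM, with Pcna (the replication clamp) at 66.6 ± 8.61, Top2a at 44.2 ± 3.57 and Mki67 at 41.1 ± 6.64 FPKM. Among components of the follicular basement membrane and matrix, all 13 of which had a mean of at least 1 FPKM, Serpine2 (a protease inhibitor of granulosa cells, 236 ± 14.5 FPKM), Lama1 (a laminin chain, 111 ± 19.3) and Sparc (97.8 ± 10.5) led. Genes that hold the oocyte in meiotic arrest were also present, all 7 at a mean of at least 1 FPKM. Nppc, the granulosa peptide that keeps cyclic GMP high, was at 60.0, 42.5, 59.2 and 50.8 FPKM, and its receptor Npr2 at 86.6, 83.9, 85.8 and 75.9 FPKM. The oocyte receptor Gpr3, which keeps cyclic AMP high there, was at 3.18 ± 0.492 FPKM.

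Oocyte transcripts were led by secreted growth factors, zona proteins and stored maternal factors. Gdf9, a growth factor of the oocyte, had 84.7, 131, 105 and 105 FPKM and ranked 343rd by mean (chromosome 11, 53431023 to 53437904). Its relative Bmp15 had 32.0, 44.2, 38.9 and 37.7 FPKM. The zona pellucida genes were at 74.2, 126, 96.8 and 91.6 FPKM for Zp3, at 30.8, 50.05, 37.0 and 31.1 FPKM for Zp2 and at 18.8, 36.2, 29.3 and 23.8 FPKM for Zp1. Control 2 was the highest and control 1 the lowest for each of these 5 genes. Their ratios varied less: Gdf9 exceeded Bmp15 2.78 ± 0.141 times, Zp3 exceeded Zp2 2.62 ± 0.230 times and Zp3 exceeded Zp1 3.64 ± 0.303 times.

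Maternal-effect genes, whose products are stored for the embryo, lay in the same range of levels. Padi6, of the cytoplasmic lattices, had 71.8 ± 13.3 FPKM, H1foo (the oocyte linker histone) 62.0 ± 7.77 and Npm2 42.7 ± 7.43 FPKM. Oosp1, which encodes a secreted protein of the oocyte, had 41.0 ± 5.27 FPKM. Regulators of oocyte gene expression were lower, with Nobox at 9.86 ± 2.68 and Figla, which activates the zona genes, at 1.41 ± 0.168 FPKM from 23 to 25 fragments per library. Sohlh1, a factor of early oocytes, was the single listed member with a mean under 1 FPKM, at 0.257 ± 0.0737.

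The promoter of Zp3 is shown because the zona genes are a textbook case of E-box control in the oocyte. Whether such control bears on their ratios between libraries was not tested. RefSeq's window in GRCm38.p6 is chr5:135979855-135980154 on the plus strand, running from 250 bases before the gene's start to 50 after it. The letters CACGTG, searched on both strands (the motif is its own reverse complement), occur 1 time and are in capitals. CACGTG is 1 form of the E-box, and other forms were neither searched nor marked.
Zp3: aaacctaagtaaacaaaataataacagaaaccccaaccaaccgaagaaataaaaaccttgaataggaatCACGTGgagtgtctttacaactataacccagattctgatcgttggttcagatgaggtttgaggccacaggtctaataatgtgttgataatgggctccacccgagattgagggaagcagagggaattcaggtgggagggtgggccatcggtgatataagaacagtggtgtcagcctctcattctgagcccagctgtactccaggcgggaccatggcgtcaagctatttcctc
Of all 32851 RefSeq promoter windows of this length, 7.15% hold CACGTG. The match describes the letters alone, and no binding was measured in these libraries.

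Markers of other ovarian cells were lower than those of granulosa cells. The theca list summed to 1039, 1057, 1407 and 1161 FPKM, but Hsd3b1, which granulosa cells also express, made up most of it, and the other 9 genes averaged 129 FPKM in sum. Insl3, a hormone of theca cells, was at 3.61, 1.66, 0.728 and 1.46 FPKM. Collagens of stromal fibroblasts had means of 19.3 ± 6.87 (Col3a1), 13.9 ± 7.10 (Col1a1) and 11.9 ± 5.76 FPKM (Col1a2). Acta2, the actin of smooth muscle and of the outer theca, had 49.4, 51.0, 29.7 and 34.8 FPKM. Endothelial genes stayed below 10 FPKM, led by Cdh5 (VE-cadherin) at 3.69 ± 0.723 FPKM. Surface epithelium genes were led by Upk3b at 14.3 ± 3.23 FPKM.

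Among the cell type lists, the sums of blood transcripts differed most between libraries. Hba-a1, an alpha globin of red cells, had 44.1, 605, 1075 and 115 FPKM, and ranked 1109th in control 1 but 11th in control 3. Hbb-bs, a beta globin, had 16.9, 227, 372 and 37.7 FPKM. Both were highest in control 3, then 2, then 4, and lowest in control 1, and Hba-a1 exceeded Hbb-bs 2.80 ± 0.207 times throughout. Hba-a1 and Hba-a2, and likewise Hbb-bs and Hbb-bt, are near-identical copies, so the split within each pair is uncertain. Summed over 5 erythroid genes, the highest library had 23.2 times the lowest.

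Leukocyte genes were lower, and their sum ran in the same order of libraries as the globins. Lyz2, lysozyme of macrophages and neutrophils, had 15.1, 37.7, 87.3 and 18.1 FPKM, and C1qa, of macrophages, had 5.14, 9.26, 14.3 and 7.42 FPKM. The list summed to 36.3, 76.5, 155 and 45.0 FPKM. Ptprc, the marker shared by most leukocytes, stayed at 0.262 ± 0.174 FPKM and Cd3e, of T cells, at 0.0155 ± 0.0154 FPKM. Saa3, an inducible acute-phase protein, followed the same order of libraries with 1.19, 8.07, 30.4 and 2.63 FPKM.

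**Figure D3:**
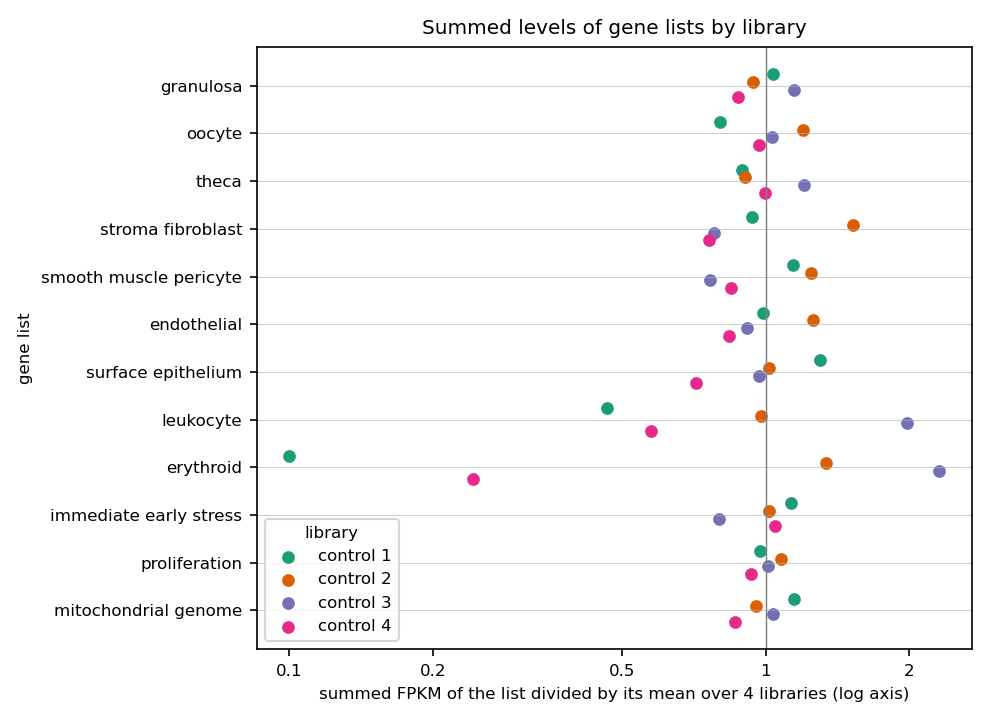
Summed FPKM of 12 gene lists in each control library divided by the list's mean over the 4 libraries, on a log axis, with 1 point per library. Erythroid and leukocyte sums spread widest, with control 3 highest, while the oocyte and stromal sums are highest in control 2.

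By number of highest genes, controls 1, 2 and 3 each led some of the gene lists outright, while control 4 led none outright. It tied with control 2 for receptors and for transcription factors, at 8 genes each. Over all 14636 genes whose mean reached 1 FPKM, 26.2%, 19.0%, 26.8% and 27.9% had their highest value in controls 1 to 4. In control 2, 20 of 24 oocyte genes, 10 of 11 stromal genes, 5 of 6 endothelial and 5 of 5 smooth muscle genes were at their highest. Among leukocyte and erythroid genes, 10 of 10 and 5 of 5 were highest in control 3. In control 1, 4 of 4 surface epithelium genes and 9 of 13 mitochondrial protein genes were highest, and 19 of 24 oocyte genes were lowest. The lowest value lay in controls 1 to 4 for 20.7%, 23.5%, 28.2% and 27.7% of all these genes. Genes of a list are measured in the same libraries and are not replicates, so these counts describe 4 libraries and carry no test. Why they moved together was not tested.

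The granulosa list split between libraries. Of its 15 genes, 11 were highest in control 3, and the remaining 4 (Nr5a2, Fst, Esr2 and Wt1) were highest in control 4. Inha, Inhba, Inhbb, Foxl2 and Gata4 each ran in the order control 3, 1, 2, 4 from high to low. The order for Esr2, Nr5a2 and Fst was the reverse at its ends, with control 4 highest and control 3 lowest.

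**Figure D4:**
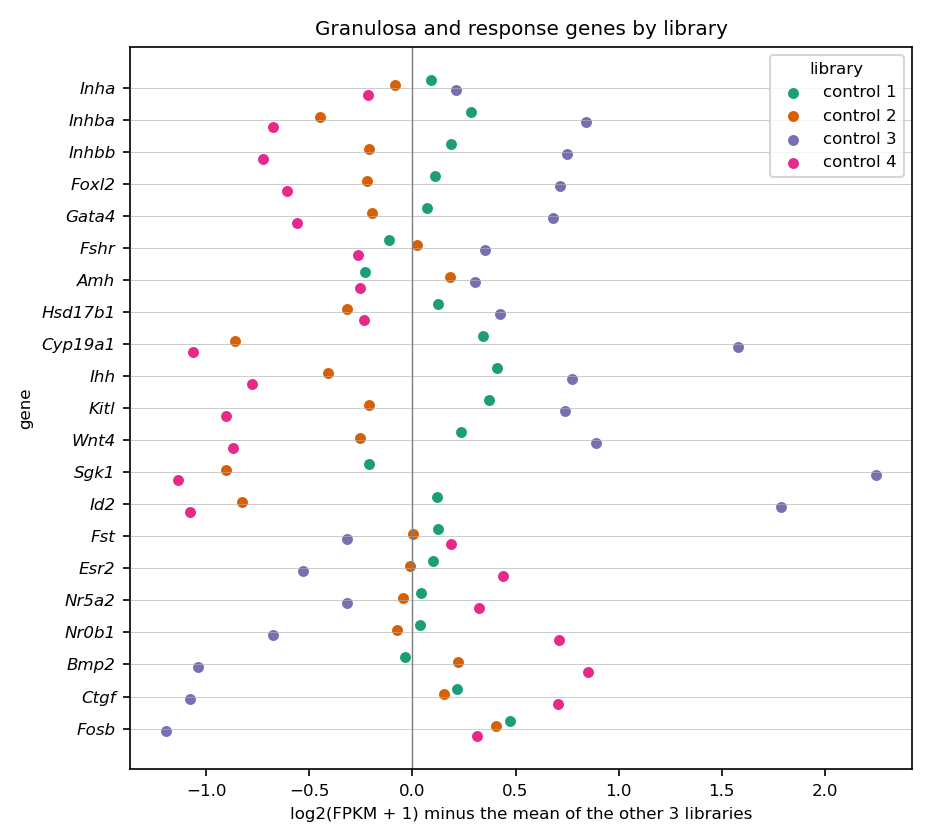
Log2(FPKM + 1) of 21 granulosa and response genes in each library minus the mean of the other 3 libraries, with 1 point per library. Genes from Inha to Id2 have control 3 on the right and control 4 on the left or near it, while genes from Fst to Fosb have control 3 on the left.

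Several ligands followed the same order as the inhibin subunits. Ihh, a hedgehog ligand that signals from granulosa to theca, had 100.001, 65.0, 121 and 53.5 FPKM. Kitl, which acts on the oocyte's Kit receptor, had 12.3, 8.82, 15.1 and 5.84 FPKM, and Wnt4 had 8.98, 6.75, 13.03 and 4.62 FPKM. All were high in control 3 and low in control 4. Cyp19a1 shared this order, with a highest library 4.53 times the lowest. Sgk1, a kinase induced by FSH and by glucocorticoids, went further, with 5.25, 3.37, 21.5 and 2.86 FPKM. Id2, chosen after its values were seen, had 11.3, 6.53, 28.3 and 5.61 FPKM.

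Genes with control 3 lowest included growth factors and immediate-early genes. Bmp2 had 20.1, 23.1, 11.5 and 32.4 FPKM, Nr0b1 (a repressor of steroidogenic factor) had 11.8, 11.1, 7.83 and 17.2 FPKM and Ctgf, a matricellular protein, had 61.8, 59.9, 31.1 and 80.1 FPKM. For all 3 genes control 4 was highest. The immediate-early genes Fos (262, 220.4, 141 and 224 FPKM) and Fosb (88.7, 85.7, 36.7 and 81.6 FPKM) were lowest in control 3 and highest in control 1. Jun was at 318, 296, 214 and 290.4 FPKM, the highest of this group by mean. Of 14 immediate-early and stress genes, 10 were highest in control 1 and 9 were lowest in control 3. The heat shock genes ran otherwise: Hspa1b had 16.3, 37.7, 70.1 and 83.3 FPKM and Hspa1a, a near-identical copy, had 8.86, 22.4, 49.5 and 39.8 FPKM, both lowest in control 1.

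Beside these granulosa values, control 3 also had the highest erythroid and leukocyte sums given above and the lowest sum of immediate-early genes. The part of any of these in the granulosa differences was not tested. Leaving out control 3 lowered the mean erythroid sum from 666 to 373 FPKM and the leukocyte sum from 78.2 to 52.6 FPKM, and leaving out control 1 raised the erythroid mean to 866 FPKM. The granulosa mean was 9429 FPKM, and 8965 to 9822 FPKM when any 1 library was left out.

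For most genes the 4 libraries lay close together. The median SD of log2(FPKM + 1) over 14636 genes was 0.13, and 743 genes (5.08%) had an SD over 0.5. Among genes with a mean from 10 to 100 FPKM the median coefficient of variation was 7.53%. Counting alone would give a median of 2.51%, and the median beyond counting error, taken by subtracting variances, was 6.89%. The steadiest genes whose mean reached 10 FPKM were Pacs1 (19.6, 19.4, 19.5 and 19.6 FPKM), Fig4, Kdm2a, Cox5b, Rfwd3, Rrp7a, Prkcsh and Csnk1a1. They serve varied housekeeping tasks such as protein sorting, phosphoinositide turnover and respiration.

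**Figure D5:**
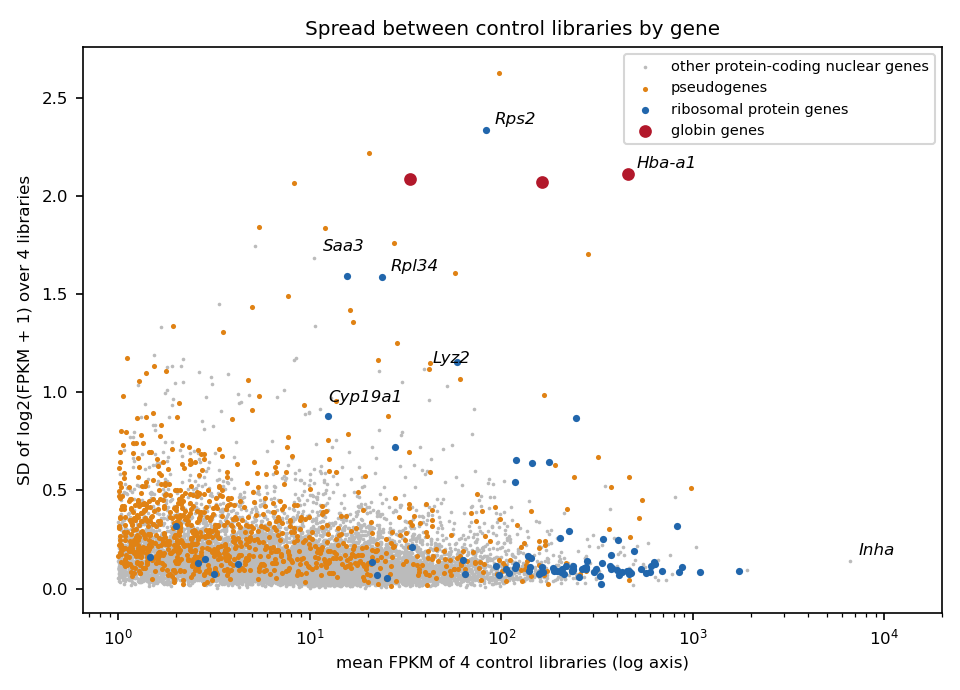
SD of log2(FPKM + 1) over the 4 control libraries against mean FPKM on a log axis, for genes whose mean reached 1 FPKM in 3 classes, with globin genes in red. Most protein-coding genes lie under an SD of 0.5, and the points above 1.5 are mainly pseudogenes, ribosomal protein genes and globins.

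The widest spread was concentrated in a few classes. An SD over 0.5 was found for 281 of 558 small RNA genes, 9 of 25 genes of the mitochondrial genome and 52 of 333 genes of other classes. It was also found for 132 of 984 pseudogenes, 11 of 88 ribosomal protein genes and 54 of 1134 long noncoding and unclassified transcripts. Among other protein-coding nuclear genes, 204 of 11514 had such an SD. A gene with a short exon length, such as a small RNA gene, reaches 1 FPKM with few fragments. The part of counting error in these spreads was not computed by class. The 12 most variable genes whose mean reached 10 FPKM included the ribosomal protein genes Rps2 and Rpl29, the pseudogenes Rps3a2, Rps3a3 and Rpl17-ps5, the globins Hba-a1, Hbb-bs and Hbb-bt, and Saa3. Rps2 had 148, 7.73, 9.70 and 169 FPKM, with controls 1 and 4 high and controls 2 and 3 low. Grik3, a kainate receptor subunit, differed in another way, at 10.3, 16.1, 14.8 and 1.35 FPKM, low in control 4 alone.

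Ribosomal protein genes have near-identical copies elsewhere in the genome. Rpl34 had 8.73, 73.5, 6.42 and 7.04 FPKM, while its copy Rpl34-ps1 had 1202, 554, 1034 and 1109 FPKM, so that control 2 was high for the gene and low for the copy. Their sequences are shown because they bear on which of the 2 genes a fragment can be assigned to. Over the 354 bases of Rpl34-ps1 aligned without gaps to the Rpl34 transcript (GENCODE M21), 2 bases differed, an identity of 99.4%. Positions 119 to 318 of that alignment follow, with the differing bases in capitals. Rpl34 lies at chr3:130726831-130730398 on the minus strand and Rpl34-ps1 at chr6:71124610-71124963 on the plus strand (mm10).
Rpl34: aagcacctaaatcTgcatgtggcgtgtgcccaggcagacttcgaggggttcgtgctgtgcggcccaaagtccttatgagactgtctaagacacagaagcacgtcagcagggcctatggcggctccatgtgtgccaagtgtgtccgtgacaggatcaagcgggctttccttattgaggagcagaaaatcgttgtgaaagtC
Rpl34-ps1: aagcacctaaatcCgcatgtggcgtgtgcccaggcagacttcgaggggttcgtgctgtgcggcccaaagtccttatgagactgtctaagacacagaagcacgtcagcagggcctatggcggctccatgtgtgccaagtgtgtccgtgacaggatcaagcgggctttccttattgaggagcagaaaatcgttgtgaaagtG
Counted as fragments and scaled to a common depth (fragment counts divided by the library total, times 1e6), Rpl34 had 23.1, 194, 17.0 and 18.6 and Rpl34-ps1 had 426, 196, 366 and 393. Their sum was 449, 390.2, 383 and 411 on this scale, with a highest library 1.17 times the lowest, against 11.4 times for Rpl34 alone. In the same way Rps2 ranged over 21.8 times, but its sum with the copies Rps2-ps13 and Rps2-ps10, chosen after their values were seen, ranged over 1.28 times. The values of Rpl34, Rps2 and these copies are therefore uncertain, as are those of other ribosomal protein genes with such copies and of the copies themselves. FPKM also divides by 2643 bases of exon for Rpl34 but by 354 for Rpl34-ps1. In control 2, 194 and 196 fragments on the common scale thus gave 73.5 and 554 FPKM.

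The mitochondrial genome showed such copies too. mt-Co1, mt-Cytb and mt-Nd1 stood at 7989.8 ± 755, 3723 ± 341 and 2995 ± 481 FPKM, but mt-Co2, mt-Co3 and mt-Atp6, which encode subunits of cytochrome c oxidase and, for the last, of ATP synthase, stood at 142 ± 11.7, 91.1 ± 40.3 and 83.0 ± 8.50 FPKM. By mean, mt-Nd4l, mt-Nd3 and mt-Atp8 were lower still, at 54.1 ± 23.6, 13.9 ± 3.34 and 8.68 ± 1.76 FPKM, and copies of them were not examined. Each of mt-Co2, mt-Co3 and mt-Atp6 has an annotated copy on chromosome 1 (Gm28661, Gm28437 and Gm10925, chosen after their values were seen). Along 681, 783 and 678 aligned bases the transcripts of gene and copy differed at 0 positions. The copies were at 72.4 ± 6.89, 58.3 ± 6.72 and 87.3 ± 14.9 FPKM, so even gene and copy summed stayed at 214, 149 and 170.4 FPKM. With identical copies, the levels of mt-Co2, mt-Co3 and mt-Atp6 are uncertain. mt-Nd6, at 730.0 ± 232 FPKM, lies on the strand opposite to most of these genes, and the use of strand in counting is not given in the sources used here, so its level is uncertain as well.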

How the data were processed

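RNA of type 7 to 8 follicles was sequenced, and 4 control libraries were described. The authors deposited FPKM per gene, per the file headers. The submitters' processing notes name HISAT2 2.0.5 and the mm10 build. How fragments were counted, over which annotation and with which strand setting, is not given in the sources used here. Between the series table and the control sample files 0 cells differed. GENCODE M21 gave exon lengths, positions and classes for 54495 of 55157 genes. With these lengths, 98.8% of low values (up to 30 fragments) were whole within 0.05 fragments, which gave the depth of each library.

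Means, SDs, ranks and shares were computed with Python 3.11.15, numpy 2.4.6 and pandas 2.3.3 on the FPKM as deposited, and plots were made with matplotlib 3.10.9. SDs of log2(FPKM + 1) were taken over genes whose mean reached 1 FPKM. As a single group was described, no test between groups and no p-value was computed, and no feature was called. The depth and spread calculations were checked on simulated data.

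Named genes are the 30 with the highest mean (exon length of at least 300 bases), members of the gene lists, the 12 most and 8 least variable genes whose mean reached 10 FPKM, and the 5 genes that deviated most in each library. Others are said to have been chosen after their values were seen. A gene within this rule is not reported here. Members and lists were chosen with earlier results of these data known. Of the oocyte list, H1f8 is an alias of H1foo and has no entry of its own. Alternatives were other thresholds, filters, pseudocounts and scalings, and leaving out a library, the mitochondrial genome or short genes.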

Additional observations from a re-analysis of the deposited data

Results flagged for a closer look

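In 10 of 161 genes and list sums reported, 1 library stood far from the other 3, with a gap that took up most of the whole range. In unselected groups of 4 values chance gives about 1 in 20 such cases. That share is no yardstick here, since Rps3a3, Rpl34 and Rpl29 were named for their spread or deviation and the collagens varied together. Control 2 stood apart in 5 genes. These were Rpl34 at 73.5 FPKM and Rpl29 at 49.2 FPKM, against 4.13 to 8.73 FPKM for both genes in the other libraries, and the fibroblast collagens Col3a1 at 29.5, Col1a1 at 24.5 and Col1a2 at 20.5 FPKM, against 8.72 to 17.0 FPKM. Control 3 stood apart in 3 genes, high for Sgk1 (21.5 FPKM) and low for Fosb (36.7 FPKM) and for Has2 (0.0428 FPKM). Control 4 stood apart for the pseudogene Rps3a3 (86.2 FPKM) and for Mtnr1a, whose 0.0221 FPKM is 1 fragment against 0 in the other libraries.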

How the results depend on the processing

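The controls form a single group with no test, and FPKM gives shares within a library, not amounts of RNA per follicle. No paired analysis was possible because the results come from no test and only the control group was described. With 3 libraries in place of 4, 13430 to 13485 genes reached 1 FPKM in all, 708 to 825 genes had an SD over 0.5 and the median SD was 0.116 to 0.129. The top 10 and top 100 genes then held 10.1% to 10.6% and 24.4% to 25.1% of summed FPKM. Marker sums ranged over 8965 to 9822 FPKM for granulosa, 660.4 to 754 for oocyte, 1086 to 1208 for theca, 62.9 to 82.3 for stroma, 48.3 to 56.7 for smooth muscle, 12.6 to 14.6 for endothelium, 27.2 to 33.1 for surface epithelium, 52.6 to 92.2 for leukocytes and 373 to 866 for erythroid genes. Without the mitochondrial genome the top 10 held 6.15% and the top 100 held 20.1%. A threshold of 5 FPKM left 8077 genes. The median SD and the number of genes with an SD over 0.5 were 0.184 and 2738 with each library rescaled to a common sum of 1e6, 0.153 and 1427 with a pseudocount of 0.1, 0.108 and 1198 with no filter, and 0.109 and 248 with a filter of 5 FPKM. By construction the rescaling raised every value, since the libraries summed to between 287731 and 302290 FPKM. The filter and the pseudocount stayed as they were, so lower genes entered, and 16822 genes reached 1 in all libraries. The spread after rescaling is thus not measured at the same filter. Median-ratio scaling gave 0.13 and 745. Rescaled marker sums were granulosa 32160.5, oocyte 2419.7, theca 3983, stroma 261, smooth muscle 179.5, endothelium 47.2, leukocytes 268, erythroid 2284 and surface epithelium 103. Median-ratio scaling, with factors from 0.995 to 1.01, moved 0 of 14 results beyond their spread. Without its highest member, an alternative chosen after seeing the data, the granulosa sum was 2832, theca 129, smooth muscle 11.4, endothelium 10.1, surface epithelium 15.95, erythroid 206, leukocytes 38.7, oocyte 600.4 and stroma 56.9 FPKM. Leaving out ribosomal protein genes and pseudogenes, also chosen after seeing the data, moved neither measure of spread beyond its limit.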
